A study of Saccharomyces cerevisiae with 2 samples.

Results

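The short open reading frames (ORFs) of budding yeast that carry no gene name of their own were examined for cover by R-loop peaks. They are the nuclear protein-coding genes of 400 bp or less whose symbol in the R64 gene table, the sacCer3 sequence, is only the systematic locus tag, such as YGR035W-A. Of 6002 nuclear protein-coding genes, 285 met this rule, with lengths from 51 to 399 bp and a median of 267 bp. The rule uses length and name alone and none of the measured values. The nearest comparable genes are the 341 named protein-coding genes of 400 bp or less, which had a median length of 318 bp.

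R loops form where an RNA pairs with the DNA strand it was copied from and leaves the other DNA strand single. The S9.6 antibody binds such RNA:DNA hybrids, and DRIP-seq sequences the DNA that it pulls down. Many short ORFs of the yeast genome were annotated from sequence conservation or small transcripts and have no known function. A systematic name gives the chromosome and then the arm by a letter each, and the strand by W or C, and a suffix such as -A marks an ORF added later between numbered ones. Because such ORFs are short and often sit in gaps or over RNA genes, a peak over one may belong to the ORF or to a longer neighbour. Among such neighbours are the rRNA and tRNA genes and the ORFs of Ty elements, the retrotransposons of yeast, of which the genome holds many near-identical copies.

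The S9.6 immunoprecipitate of the series came from asynchronous Saccharomyces cerevisiae of strain WRBb-9D in mid-log growth in YPAD, a rich medium, at 30 °C. The labels call it wild type, but the MATa strain is deleted for BAR1, has RRM3 tagged with FLAG and KAN, carries the alleles trp1-1, his3-11,15, can1-100 and ade2-1 and a marker allele of LEU2, and has URA3/GPD-Tk(7x) at URA3. The matched input has the same genotype and no values of its own here, so there was 1 library, no replicate check on any value, and no p-value. The DNA was cut with restriction enzymes and amplified across the whole genome before sequencing, and the read depth behind the peaks is unknown. The peak list held 1687 nuclear peaks with a median width of 325 bp and a median score of 24, and no peak was narrower than 200 bp. The score is the authors' own value per peak, on a scale that the sources used here do not state, and it serves below only to rank peaks of this list.

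Most short ORFs without a name had no peak. Of the 285, 251 had no base inside a peak, 34 were touched by at least 1 bp (11.9%, exact 95% binomial interval 8.40 to 16.3), and 26 were covered, meaning that at least 50% of their length lay inside peaks (9.12%, interval 6.05 to 13.1). Over all nuclear protein-coding genes 21.2% were touched and 4.42% covered, so the touched share of the short ORFs lay below that of all these genes and the covered share above it. Unless stated otherwise, shares over all these genes include 77 Ty ORFs, of which 68.8% were covered. Outside Ty ORFs 20.4% of the genes were touched and 3.58% covered. Named genes of 400 bp or less stood between the unnamed ORFs and all genes, with 43 of 341 touched (12.6%, interval 9.28 to 16.6) and 23 covered (6.74%, interval 4.32 to 9.95). The intervals of the unnamed and named short genes overlap, they cover counting error only, and with 1 library no difference between these shares was tested. The order of the short groups depends on the measure: by the touched share the unnamed ORFs stood lower, and so they did by any overlap with the 200 bp around each summit, with 15 of the 285 unnamed ORFs (5.26%) against 29 of the 341 named short genes (8.50%). Among genes over 400 bp, 21 of 383 without a name and outside Ty elements were covered (5.48%), and 142 of 4916 with a name (2.89%).

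Length enters these shares directly. Of the ORFs without a name, 96 were shorter than the narrowest peak, against 38 of the named short genes, and an ORF of that size lies wholly inside a peak once the peak has gone a little past it. Of the touched ORFs 76.5% were covered, against 53.5% of touched named short genes and 20.8% of all touched nuclear protein-coding genes. Wholly inside peaks were 14 of the 285 (4.91%), against 8 of the 341 named short genes (2.35%) and 1.00% of all nuclear protein-coding genes. At least 90% inside peaks were 15 of the 285 (5.26%), against 9 named short genes (2.64%) and 1.45% of all nuclear protein-coding genes. Both counts of unnamed ORFs include 8 beside the rRNA genes, described below, which lay wholly inside only 3 peaks. The same 8 enter the share of bases that follows, and neither these shares nor that one were computed without them. Counted by bases, which does not depend on the 50% limit, 8.11% of the sequence of the short unnamed ORFs lay inside peaks, against 6.51% for the named short genes and 7.03% for all nuclear protein-coding genes. The 7.03% includes the Ty ORFs, whose sequence was 67.9% inside peaks. For named genes over 400 bp the share of bases was 4.90%, and for unnamed ones outside Ty elements 9.12%. Within the unnamed ORFs, 11 of the 96 of up to 200 bp were covered, all of those touched, while of the 127 ORFs of 301 to 400 bp 16 were touched and 9 covered. At the limits of both rules, the least covered ORF inside the 50% limit was YHL048C-A at 53.3%, the next below it was YFR035C at 40.6%, and neither the longest ORF inside the length limit (YJR012C, 399 bp) nor the shortest unnamed ORF beyond it (YDR157W, 402 bp) had a peak.

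**Figure D1:**
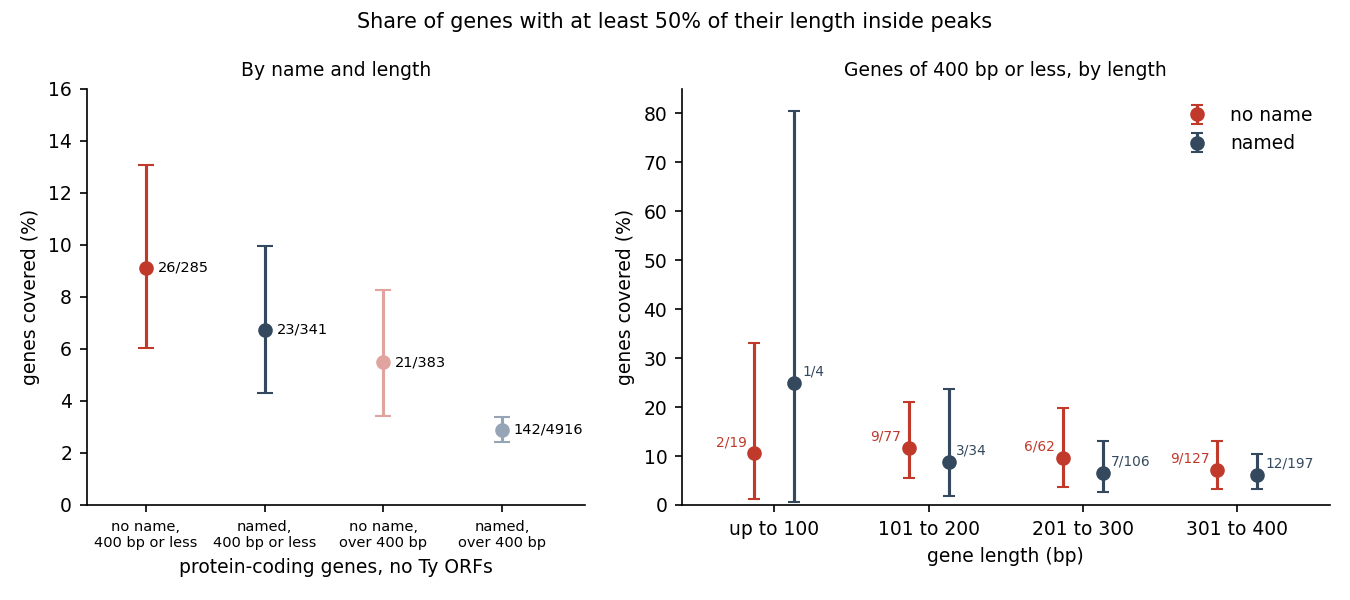
Percentage of genes covered (at least 50% of their length inside peaks) with exact 95% binomial intervals, by name and length (left) and, for genes of 400 bp or less, by length class (right). Numbers beside the points are covered genes over all genes of the class; 26 of 285 short ORFs without a name and 23 of 341 named short genes were covered.

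The 26 covered ORFs lay under 21 different peaks, and most of these peaks had their midpoint outside the ORF. The midpoint of the peak fell inside the ORF for 7 of the 26 (26.9%, interval 11.6 to 47.8), against 13 of the 23 covered named short genes (56.5%, interval 34.5 to 76.8). As a share of all genes of each kind, these are 2.46% of the 285 and 3.81% of the 341, both near the 2.92% over all nuclear protein-coding genes. Of the 15 unnamed ORFs that meet the 200 bp around a summit, 8 held the middle of that window (53.3%). That window is placed by the summit, and these ORFs were picked for lying near one, so this share cannot be compared with the 26.9%. The summit lay inside the ORF for 5 of the 26, against 12 of the 23 covered named short genes. As a share of all genes of each kind, these are 1.75% of the 285 and 3.52% of the 341. Over all nuclear protein-coding genes, 2.47% were covered with the summit inside. The ORF filled a median of 24.3% of its peak, from 1.05% to 100%, and the named short genes filled 48.3%. A peak that touched no other gene was found for 7 of the 26 unnamed ORFs, against 15 of the 23 named short genes, and a peak that also touched a larger gene for 17 of the 26, against 6 of the 23. Larger here means any protein-coding gene longer than the ORF itself, so a shorter ORF meets this more easily. The intervals for the midpoint overlap between the groups and the difference was not tested. Length and shared peaks enter these contrasts too. Of the covered genes, 17 of the 26 unnamed and 11 of the 23 named were of 300 bp or less. Among those 17 unnamed ORFs, 2 held the midpoint. Beside the rRNA genes 8 of the 26 lay under only 3 peaks, so the 26 are not independent as the intervals assume. Relative to the ORF's own direction, 14 peaks ran past both ends, 7 past the start alone, 4 past the end alone and 1 lay within the ORF.

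**Figure D2:**
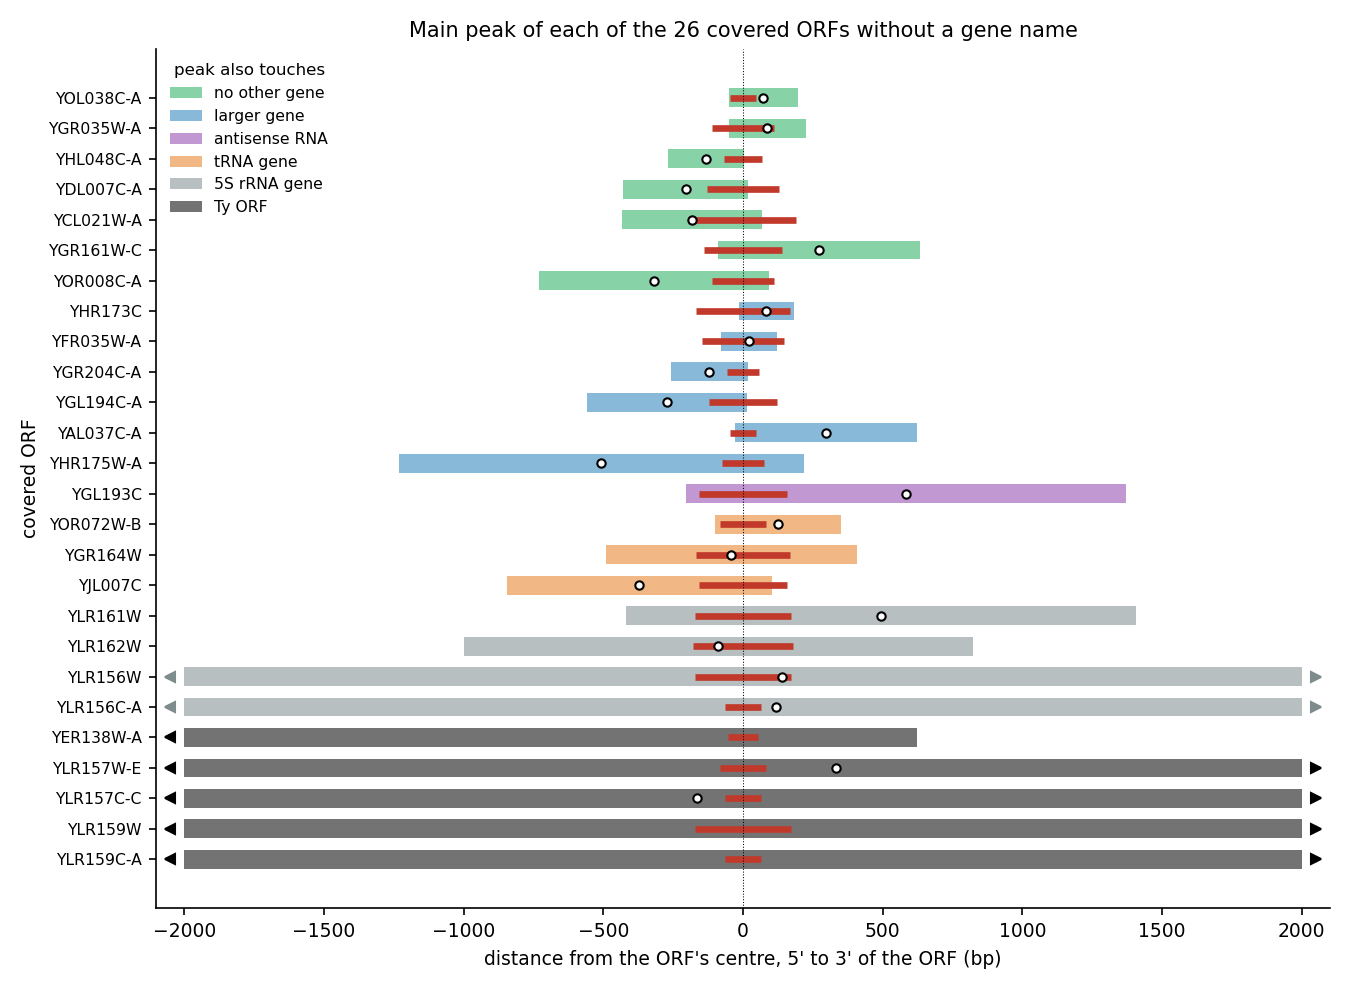
Main peak (bar) of each covered ORF without a gene name, drawn along the ORF's own direction in bp from the ORF's centre; the red line is the ORF, the open circle the midpoint of the peak, circles beyond the axis are not drawn, arrowheads mark peaks that go on past it, and bar colours give the kind of other gene the peak touches. The circle falls on the red line for 7 of the 26 ORFs, and the widest bars belong to the 5S rRNA and Ty groups.

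Both the midpoint and the summit of the peak lay in the ORF for 4 covered ORFs. YCL021W-A (chromosome III, 83620 to 83997) was 67.7% inside a peak of 500 bp with a score of 34 that touched no other gene, and it filled 51.2% of that peak. YGR035W-A (chromosome VII, 557565 to 557786) was 72.5% inside a peak of 275 bp with a score of 32, also with no other gene, and filled 58.5% of it. These are the 2 ORFs of the set whose peak was centred on them and touched nothing else annotated. YHR173C (chromosome VIII, 450815 to 451153) was 54.9% inside a peak of 200 bp with a score of 26, and 93% of that peak lay in the ORF. The rest lay just beyond its end, where it met SPC97, which encodes a component of the gamma-tubulin complex. YFR035W-A (chromosome VI, 226260 to 226550) held a whole peak of 200 bp with a score of 19 and was 68.7% covered, but it overlaps YFR035C, an unnamed ORF of 345 bp on the opposite strand that held both the midpoint and the summit as well. The peak list has no strand, so the 2 ORFs cannot be told apart. The 7 centred peaks include 3 others: that of YGR164W, whose midpoint also falls in a tRNA gene, and those of YLR156W and YLR162W beside the rRNA genes, where the summit lay outside the ORF.

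For 4 further ORFs the peak was shared with a larger protein-coding gene and centred outside the ORF. YHR175W-A (chromosome VIII, 453558 to 453707) was fully inside a peak at 452401 to 453850 with a score of 80 that held all of CTR2, a vacuolar copper transporter gene, and had its summit in ENO2, an enolase gene of glycolysis, 1120 bp from the ORF. ENO2 has a near-identical paralog, so reads could be shared there. YAL037C-A (chromosome I, 73426 to 73518) was 80.6% inside a peak of 650 bp with a score of 32 whose midpoint and summit lay in CDC19, the pyruvate kinase gene, which itself was 70.7% inside peaks. In both cases the ORF took up little of the peak, 10.3% for YHR175W-A and 11.5% for YAL037C-A. YGL194C-A (chromosome VII, 139719 to 139961) was 56.0% inside a peak with a score of 42 that only just reached HOS2, a histone deacetylase gene, and had its summit in the gap 115 bp from the ORF. YGR204C-A (chromosome VII, 909061 to 909174) was 64.9% inside a peak of 275 bp with a score of 40, of which 163 bp lay in TDA10.

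For 3 covered ORFs the peak also touched a tRNA gene, a class transcribed by RNA polymerase III. YGR164W (chromosome VII, 828625 to 828960) was fully inside a peak of 900 bp with a score of 52, which also held the tRNA gene YNCG0038C, inside the ORF's span. The peak reached MRPS35, a mitochondrial ribosomal protein gene, and GTR2, a GTPase gene of the TORC1 pathway, and its summit lay in GTR2. YOR072W-B (chromosome XV, 464469 to 464630) was fully inside a peak of 450 bp with a score of 38, and 51.2% of the ORF is shared with the tRNA gene SUF11. YJL007C (chromosome X, 422698 to 423012) was 83.2% inside a peak of 950 bp with a score of 32 that held the tRNA gene EMT3, inside the ORF's span, and more of CTK2, a subunit gene of the kinase that phosphorylates the tail of RNA polymerase II, than of the ORF, although its summit fell in the ORF. Each of these 3 peaks also touched a larger protein-coding gene, which was SGO1 for YOR072W-B. Whether the tRNA gene, the ORF or the larger gene gave the signal cannot be told apart in such overlaps. Of 28 unnamed short ORFs with a tRNA gene within 1 kb, 10 were touched and 5 covered (17.9%, interval 6.06 to 36.9), against 6 touched and 3 covered of 16 named short genes so placed (18.8%). The other 2 covered ORFs near a tRNA gene were YFR035W-A and YDL007C-A, whose peaks did not reach the tRNA gene. Over all nuclear protein-coding genes outside Ty ORFs, 20.4% were touched and 3.58% covered, and the shares of those near a tRNA gene were not computed. None of the 26 covered ORFs had a snoRNA gene under its peak, which allows a share of up to 11.5%, and of 5 unnamed short ORFs within 1 kb of a snoRNA gene 0 were touched, which with so few ORFs allows a share of up to 60%. Of the 239 unnamed short ORFs with no tRNA, snoRNA, rRNA gene or Ty ORF within 1 kb, 12 were covered (5.02%, interval 2.62 to 8.61), against 16 of 312 such named short genes (5.13%, interval 2.96 to 8.19). Of all nuclear protein-coding genes outside Ty ORFs that are so placed, most of them longer, 127 of 5388 were covered (2.36%).

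One covered ORF sits within a known antisense transcript. YGL193C (chromosome VII, 141916 to 142227) was fully inside a peak of 1575 bp with a score of 39 and also wholly inside RME2, the noncoding antisense RNA of IME4, which encodes the mRNA adenosine methyltransferase used in meiosis. The midpoint and summit of that peak lay in HOS2, where 1026 bp of it fell, and only 17.0% of RME2 was inside peaks.

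For 5 covered ORFs the peak touched no other annotated gene and yet was centred beside the ORF, in the gap. YGR161W-C (chromosome VII, 810227 to 810505) was 82.4% inside a peak of 725 bp with a score of 52 that ran from the ORF towards YGR161W-B, a Ty ORF by its length, and ended 738 bp before it. YDL007C-A (chromosome IV, 436567 to 436824) was 57.8% inside a peak with a score of 32, whose nearest other gene was a tRNA gene 647 bp away with no peak. The next, RPT2, lay 922 bp away and was 76.4% inside peaks (highest score 95). YOL038C-A (chromosome XV, 254926 to 255021) was fully inside a peak of 250 bp with a score of 23 between RPP2A, a ribosomal stalk protein gene, and PRE6, a proteasome subunit gene. RPP2A was 16.8% and PRE6 98.2% inside other peaks. YOR008C-A (chromosome XV, 342857 to 343081) was 91.6% inside a peak of 825 bp with a score of 22, between SLG1, a cell wall stress sensor gene, and TIR4, a cell wall mannoprotein gene, neither of which had a peak. YHL048C-A (chromosome VIII, 5663 to 5797) was 53.3% inside a peak of 275 bp with a score of 15. The gene table lists no long terminal repeats, origins or untranslated regions, so what else lies in these gaps was not analysed here.

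The largest group of covered ORFs stood in one place, beside the rRNA genes on chromosome XII. In S. cerevisiae the ribosomal DNA is a tandem array of units, each with a 35S transcript made by RNA polymerase I and a 5S gene made by RNA polymerase III. Beyond the 2 units of the reference lie further 5S genes and the asparaginase genes ASP3-1 to ASP3-4, with a Ty ORF among them. All 8 covered ORFs here lay wholly inside 3 neighbouring peaks. YLR156W (472113 to 472457) and YLR156C-A (472479 to 472610) lay inside the peak at 469126 to 475725 (score 273). YLR157W-E (481873 to 482037), YLR157C-C (482059 to 482190), YLR159W (485345 to 485689) and YLR159C-A (485711 to 485842) lay inside the widest nuclear peak, at 476001 to 488575 (12575 bp, score 318), whose summit fell in the Ty ORF YLR157C-B. YLR161W (488997 to 489341) and YLR162W (489573 to 489929) lay inside the nuclear peak of highest score, at 488751 to 490575 (score 679).

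All of these ORFs but YLR162W have a set place beside a 5S gene. YLR156W, YLR159W and YLR161W are each 345 bp long, and each ends 7 bp before a 5S gene, as does the shorter YLR157W-E (165 bp). YLR156C-A, YLR157C-C and YLR159C-A are each 132 bp long, start 14 bp after the start of a 5S gene, and share 105 bp with it (79.5% of the ORF). The 5S genes RDN5-2 and RDN5-3, and likewise RDN5-4, RDN5-5 and RDN5-6 in turn, start 3652 bp apart, and RDN5-3 and RDN5-4, with the Ty ORF between them, 9580 bp. YLR162W, which starts 224 bp after the start of RDN5-6, has no such counterpart. Sequence identity was not computed, but reads may be shared among ORFs of equal length and placing, which leaves their single values uncertain, and the 8 ORFs lie under only 3 peaks. How reads that fit several places were handled is unknown here.

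The listed cover stopped sharply on the side of the 35S units. These units are repeated too, so a lack of peaks there may also depend on how reads that fit several places were handled. YLR154C-H (468827 to 468958) has the same length of 132 bp and the same place on RDN5-2 as the 3 covered ORFs of that length, but had no peak, and the first flanking peak began 167 bp beyond it. YLR154C-G (462522 to 462671), inside the 25S gene of RDN37-2, had none either, and no peak was listed from 451151 to 469125. YLR157W-D (475764 to 475976) lay wholly in the 275 bp gap between the first and second of the flanking peaks. Of 10 unnamed short ORFs with an rRNA gene within 1 kb, 8 were thus covered, against 1 of 2 named short genes so placed. Without the peaks that touch an rRNA gene, 18 of the 285 ORFs were covered (6.32%), against 22 of 341 named short genes (6.45%). Of these 18 unnamed ORFs, 5 held the midpoint of their peak and 12 were the gene with most of it. With the 8 ORFs also taken out of the total, the unnamed share was 6.50%. Without the genes from the first to the last rRNA gene, a stretch that ends before YLR162W, and those within 30 kb of an end, 18 of 228 unnamed ORFs (7.89%) and 22 of 313 named short genes (7.03%) were covered. Leaving out the peaks over a tRNA gene or Ty ORF in their place gave 18 of 285 (6.32%) and 21 of 341 (6.16%). The 2 groups thus stood within 1 percentage point of each other under each of these settings, and their order changed among them. They stood farther apart when only peaks at or above the median score were kept. Then 22 of 285 unnamed ORFs and 15 of 341 named short genes were covered.

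**Figure D3:**
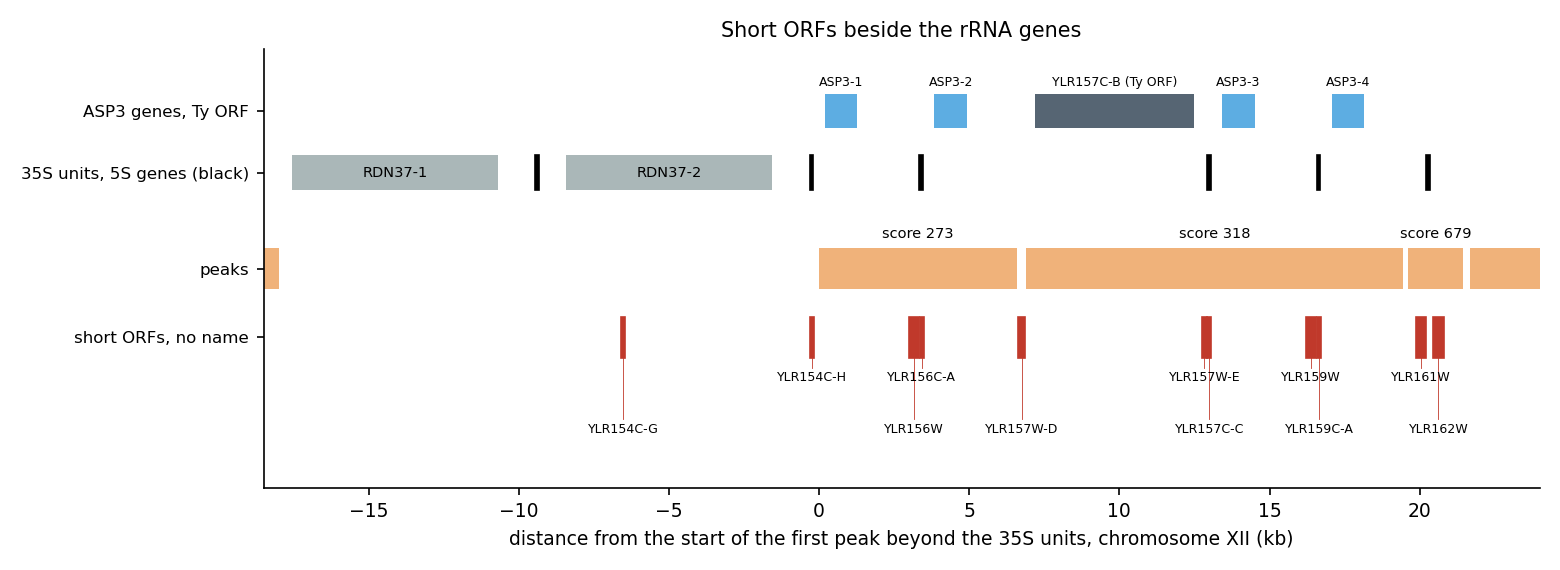
Map of the region beside the rRNA genes, in kb from the start of the first peak beyond the 35S units: short ORFs without a name (red), deposited peaks (orange, with the scores of the 3 discussed), 35S units (grey) with 5S genes (black), and ASP3 genes with the Ty ORF. The 2 ORFs left of 0 and the ORF in the gap between the first and second flanking peaks lie outside peaks, and the other 8 lie inside.

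Away from the rRNA genes a single covered ORF shared its peak with a Ty ORF. YER138W-A (chromosome V, 449474 to 449578) was fully inside a peak of 6675 bp with a score of 173 that held YER138C, a Ty ORF by its length, and YER137C-A within it. The ORF took up 1.57% of the peak and lay 450 bp from the Ty ORF, and the summit was 5861 bp away from it. Reads may be shared among Ty copies, so the value of this peak is uncertain too. Of 6 unnamed short ORFs with a Ty ORF within 1 kb, 3 were covered, and the other 2 of these stand beside the rRNA genes. Of 2 named short genes so placed, 0 were covered.

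The 8 ORFs touched but not covered had between 8.26% and 40.6% of their length inside peaks. YER135C (36.4%, score 130) met the edge of a peak of 4950 bp on chromosome V that also held a tRNA gene and SCR1, whose RNA is the core of the signal recognition particle. YGR035C (8.26%, score 52) met the edge of a peak over RPL26B, a ribosomal protein gene, and YDL009C (30.2%, score 23) shared its peak with APC11, a subunit gene of the anaphase-promoting complex. YFR035C (40.6%, score 19) is the ORF on the other strand of YFR035W-A. YLR111W (21.9%, score 20) shared a peak with the unnamed ORF YLR112W. For YFL019C (28.0%, score 32), YMR106W-A (33.7%, score 32) and YKR073C (9.97%, score 31), the peak touched no other gene and had its midpoint in the gap. The longest of the 251 ORFs with no peak were YJR012C and YOR268C, both 399 bp, and YHL005C, 393 bp.

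Overlap with another gene was common, and the counts covered differed with the kind of gene overlapped, on few ORFs of each kind but one. Of the 285 ORFs, 48 share at least 1 bp with another gene of the table, 9 of them over their whole length, and 8 of the 48 were covered (16.7%, interval 7.48 to 30.2). Of the 237 that overlap nothing, 18 were covered (7.59%, interval 4.56 to 11.7). Over all nuclear protein-coding genes outside Ty ORFs, 16 of 193 with an overlap (8.29%, interval 4.81 to 13.1) and 196 of 5732 without one (3.42%) were covered. With Ty ORFs included, 4.42% of all nuclear protein-coding genes were covered. Most overlaps, 31, are with protein-coding genes alone, and of these a single ORF was covered, YFR035W-A. By contrast 3 of 5 ORFs that overlap an rRNA gene and 3 of 5 that overlap a tRNA gene were covered, as was 1 of 5 that overlap another noncoding RNA, YGL193C. The 2 ORFs over a tRNA gene without cover were YNL042W-B and YPR159C-A, and in both the tRNA gene had no peak. The uncovered ORFs over other noncoding RNAs were YHR052C-B and YHR054C-B at the repeated CUP1 metallothionein genes, YIR020C within ICR1, and YML122C. At the CUP1 repeats a lack of peaks may also depend on how reads that fit several places were handled. Both ORFs over a snoRNA gene, YGL088W at SNR10 and YJL047C-A at SNR60, had no peak. Among named short genes, 1 of 20 with an overlap was covered.

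Of 47 unnamed short ORFs within 30 kb of an end, 1 was touched, and it was covered: YHL048C-A, 5662 bp from the end of chromosome VIII, the least covered of the 26 and the one with the lowest score, 15. That is 2.13% (interval 0.0539 to 11.3), against 25 of 238 ORFs farther in (10.5%, interval 6.91 to 15.1). Over all nuclear protein-coding genes, 5 of 394 within 30 kb of an end (1.27%) and 260 of 5608 farther in (4.64%) were covered, so the share over all these genes was also lower near the ends. Of the 9 ORFs in the outer 5 kb, 0 were touched, which allows a share of up to 33.3%. Of 37 ORFs at 30 to 100 kb, 3 were covered, and of 201 beyond 100 kb, 22. Named short genes showed 1 covered of 27 within 30 kb, PAU8, and 22 of 314 farther in (7.01%). The 30 kb share of the unnamed ORFs rests on 1 ORF, the intervals on either side of the limit overlap, and counted by the 200 bp around summits 2 of 15 ORFs lay within 30 kb (13.3%), against 1 of 26 (3.85%) as first counted. Distances from a left end count from the first base, and those from a right end, taken as the last gene or peak, are lower bounds. Whether reads that fit several places affect the peaks listed near the ends was not tested.

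**Figure D4:**
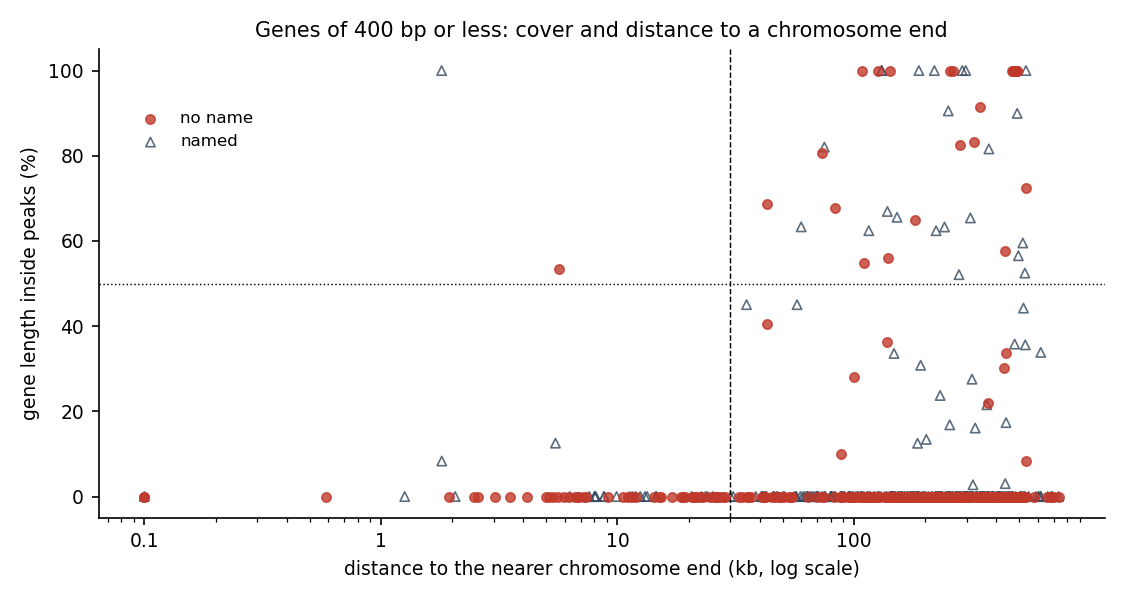
Share of each gene of 400 bp or less that lies inside peaks (%) against its distance to the nearer chromosome end in kb on a log scale, for ORFs without a name (filled circles) and named genes (open triangles). Distances under 0.1 kb are drawn at 0.1, the dashed line marks 30 kb and the dotted line the 50% limit; 1 filled circle, YHL048C-A, stands above the dotted line to the left of 30 kb.

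The peaks over covered ORFs were on the whole wider and of higher score than the list at large. The 21 peaks had a median width of 650 bp and a median score of 38, against 325 bp and 24 for all 1687 nuclear peaks, and 400 bp and 26 for the peaks over covered named short genes. A wide peak covers more small features, so width is tied to how the ORFs were counted as covered. Without the 3 peaks beside the rRNA genes the medians were 537.5 bp and 33. Of the 26 covered ORFs, 22 lay under a peak at or above the median score, against 15 of the 23 named short genes. Of all 1687 nuclear peaks, 847 were at or above it. The 26 ORFs share 21 peaks, so the 22 are not separate peaks, and no difference was tested. The covered ORFs fell on 10 of the 16 nuclear chromosomes. Chromosome XII held 8 of them among 32 unnamed short ORFs, all beside the rRNA genes, and chromosome VII 6 of 27, while chromosomes II and XIII had 0 of 22 and 0 of 25, which allow shares of up to 13.6% and 12%. Both limits lie above the 9.12% covered among all 285. The shares over all protein-coding genes of each chromosome were not computed, so these counts are not read as a difference between chromosomes.

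**Figure D5:**
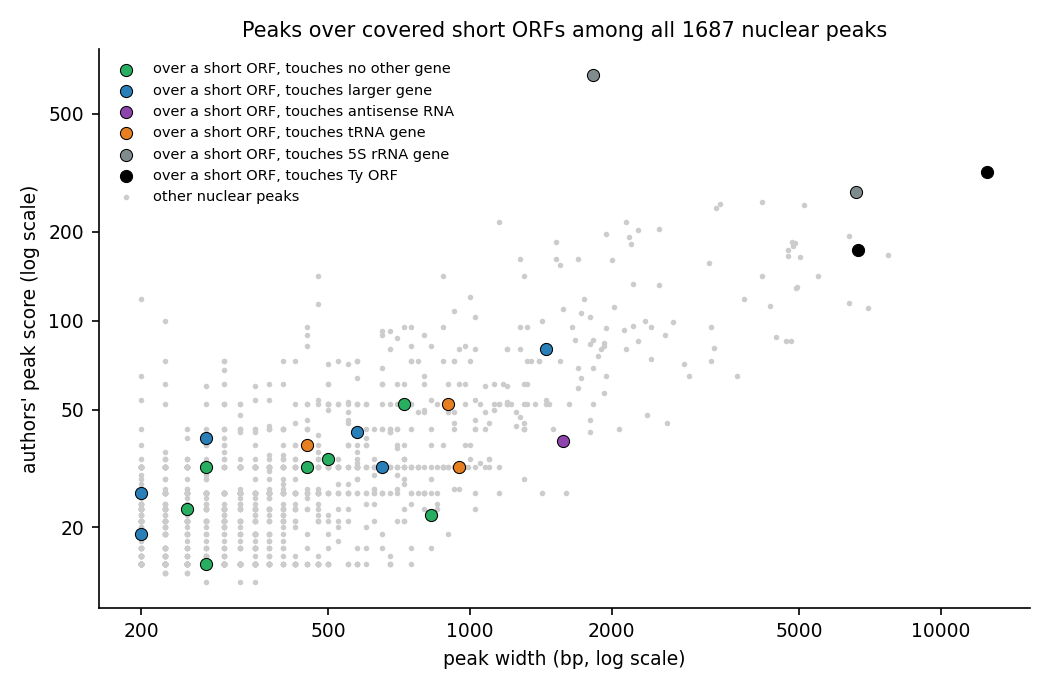
Authors' peak score against peak width in bp, both on log scales, for all 1687 nuclear peaks (grey) and for the 21 peaks that lie over covered short ORFs, coloured by the kind of other gene they touch. The peaks that touch a 5S rRNA gene or a Ty ORF stand at the upper right, and those that touch no other gene have scores of 15 to 52.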

How the data were processed

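MACS2 2.1.1.20160309 and SAMtools 1.7 were used with the sacCer3 build, per the submitters' processing notes. The sources used here do not state the aligner, the peak threshold, how reads that fit several places were handled, or how the input entered. The authors deposited a score for each peak, used only for ranking, and a summit position. Depth is unknown, and genome amplification and restriction cutting before sequencing can shape peak height and width. Genes came from a RefSeq table of R64 and strands from systematic names. Positions are 1-based. No sequences were used here.

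The main peak of an ORF is the one that shares most bp with it. It was called centred when its midpoint lay in the ORF. The table has no Ty annotation, so Ty ORFs were unnamed ORFs over 5000 bp that share their length with another, with unnamed ORFs inside them on the same strand (77 in all). That rule also takes 2 ORFs of 5665 bp at chromosome ends, which no peak over a short ORF touched. Intervals are exact (Clopper-Pearson) and cover counting error only, with 3 counts as the limit for a count of 0. The code (Python 3.11.15, pandas 2.3.3, scipy 1.17.1) was tested on planted peaks and base by base on 300 genes, with 0 differences. The members, lists and named genes were chosen with earlier results of these data known. Named were every covered centred ORF, the 4 of highest score in each other class, covered ORFs within 30 kb of an end or beside the rRNA genes, the 3 longest without a peak and those next to each limit. The touched and overlapping ORFs named beyond these were chosen after their values were seen. A gene under 1 of the peaks is not reported here.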

Additional observations from a re-analysis of the deposited data

How the results depend on the processing

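Of 59 counts under other settings, 35 stayed within 1.5 times the reported count and 24 did not. With peaks at or above the median score, 22 of 285 unnamed ORFs and 15 of 341 named short genes were covered. Of those 22 unnamed ORFs, 0 lay within 30 kb of an end. With at least 90% of the length required, 15 unnamed ORFs were covered (5.26%, against 1.45% of all nuclear protein-coding genes), 3 of them centred and 0 within 30 kb of an end, and 9 named short genes. The 15 include the 8 ORFs beside the rRNA genes. With any overlap, 43 named short genes counted. With 200 bp around each summit and any overlap, 15 unnamed ORFs were touched and hence covered, 4 overlapping another gene, 2 within 30 kb of an end and 1 under a window that meets a tRNA gene or Ty ORF. The unnamed ORFs then stood at 5.26%, below the named short genes at 8.50%, as they did by any overlap with whole peaks (11.9% against 12.6%). Without the 165 peaks over a tRNA gene or Ty ORF, 3 covered ORFs overlapped another gene. Without 30 kb at the ends and the rRNA gene stretch, and likewise without peaks that touch an rRNA gene (chosen after seeing the data), the covered ORFs that overlap another gene were 5, and those whose peak meets a tRNA gene or Ty ORF 4. For ORFs of 300 bp or less, 17 were covered and 18 touched, 2 centred, 5 overlapping another gene and 5 under a peak that meets a tRNA gene or Ty ORF, beside 11 named genes. Without ORFs that overlap another gene, 3 had such a peak. Depth and replicate spread are unknown and limit every share. No paired analysis was possible because the immunoprecipitate and the input each have replicate 1 alone, and only a single list of peaks gave values.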

Other observations

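Some touched or covered ORFs without a name stood on either side of larger genes, in places that were chosen after their values were seen. On chromosome VII, YGL194C-A and YGL193C flank HOS2, which was 77.9% inside peaks. They lay under different peaks (139826 to 140400, score 42, and 140701 to 142275, score 39), both of which also touched HOS2. On chromosome VIII, YHR173C and YHR175W-A flank ENO2 and CTR2, with the peak over YHR173C (450801 to 451000) starting in the last bases of SPC97 and ending before ENO2. On chromosome V, YER135C, touched but not covered, and YER138W-A stand towards the outer ends of a pair of neighbouring wide peaks (438226 to 443175, score 130, and 443476 to 450150, score 173). SCR1 and a Ty ORF lie between these ORFs.

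ORFs with a hyphenated suffix were touched as often as those without: 19 of 159 (11.9%) and 15 of 126 (11.9%). Covered were 18 of the 159 (11.3%, interval 6.85 to 17.3) and 8 of the 126 (6.35%, interval 2.78 to 12.1), and the intervals overlap. Over all nuclear protein-coding genes 21.2% were touched and 4.42% covered. Every covered ORF of up to 200 bp had such a suffix, among them YLR156C-A, YLR157W-E, YLR157C-C and YLR159C-A beside the rRNA genes. The covered shares by suffix are thus tied to length and to that place, and no difference was tested.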
